A study of Mus musculus with 32 samples.

Results

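The cell proliferation genes were 37 genes of DNA replication and mitosis, chosen by name from a list and looked up by gene symbol among the 55357 genes of the count table, and all 37 had a row of their own. Their RNA was measured in dissected brain arteries of 32 untreated mice. At 3 months of age 8 Notch3+/+ and 8 Notch3-/- mice were taken, and at 12 months 8 TgNotch3R169C mice and 8 WT mice, which lack the transgene. Notch3-/- mice lack the Notch3 receptor of vascular mural cells, and the TgNotch3R169C line carries a large genomic transgene of rat Notch3 with the Arg169Cys mutation on the X chromosome, beside the mouse gene. Both lines were kept on a C57BL/6 background, males and females were studied, and the sex of each mouse is not in the labels. The comparisons between each mutant and its control ask whether the mutation changes proliferation genes in the artery. WT mice aged 12 months and Notch3+/+ mice aged 3 months differ in age and in mouse line, which cannot be told apart, and their comparison shares its libraries with the others.

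A dividing cell copies its DNA in S phase and separates the copies in mitosis. D-type cyclins start the cycle after a growth signal, the MCM complex is the helicase that opens the DNA, and cyclin A and cyclin B with Cdk1 drive the cell through mitosis, where kinetochores, spindle motors and the anaphase-promoting complex move and release the chromosomes. Most of these genes are transcribed only in cycling cells, through the E2F site in S phase genes and through the CHR element beside CCAAT boxes in mitosis genes. Smooth muscle and endothelium of adult arteries divide rarely.

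The upstream sequences below are those of 3 mitosis genes and 2 MCM genes, shown as examples of how the elements are arranged in genes of either kind. Each is the 250 bases before the RefSeq start, 5′ to 3′ on the gene's strand. Capitals mark 3 elements, each read on both strands. The first is the box spelled CCAAT. The second is the CHR element of mitosis genes, which was searched for under the spelling TTTGAA and also under its less common relative, with C in the middle, TTCGAA. The third, in the MCM genes, is the E2F site in any of 4 spellings, which are TTTCCCGC, then TTTGGCGC, then TTTCGCGC and last TTTGCCGC. Neighboring E2F matches overlap in Mcm5 and Mcm6.
Mki67, GRCm38.p6 chr7:135716380-135716629, minus strand: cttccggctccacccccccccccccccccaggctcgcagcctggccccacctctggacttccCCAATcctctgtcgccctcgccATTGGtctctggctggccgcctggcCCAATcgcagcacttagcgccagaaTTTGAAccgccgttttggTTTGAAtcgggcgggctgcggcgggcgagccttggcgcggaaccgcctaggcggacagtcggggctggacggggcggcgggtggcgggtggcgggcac
Top2a, GRCm38.p6 chr11:99024190-99024439, minus strand: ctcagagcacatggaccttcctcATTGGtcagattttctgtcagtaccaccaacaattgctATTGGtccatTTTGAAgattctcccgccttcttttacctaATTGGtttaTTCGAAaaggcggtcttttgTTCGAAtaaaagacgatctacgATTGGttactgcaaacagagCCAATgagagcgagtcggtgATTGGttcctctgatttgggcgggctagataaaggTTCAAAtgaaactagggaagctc
Cdc20, GRCm38.p6 chr4:118437344-118437593, minus strand: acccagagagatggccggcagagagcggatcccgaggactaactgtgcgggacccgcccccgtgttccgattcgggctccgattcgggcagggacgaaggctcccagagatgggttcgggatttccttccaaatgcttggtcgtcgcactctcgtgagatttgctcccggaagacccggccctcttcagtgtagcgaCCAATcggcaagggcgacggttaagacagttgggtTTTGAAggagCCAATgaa
Mcm5, GRCm38.p6 chr8:75109259-75109508, plus strand: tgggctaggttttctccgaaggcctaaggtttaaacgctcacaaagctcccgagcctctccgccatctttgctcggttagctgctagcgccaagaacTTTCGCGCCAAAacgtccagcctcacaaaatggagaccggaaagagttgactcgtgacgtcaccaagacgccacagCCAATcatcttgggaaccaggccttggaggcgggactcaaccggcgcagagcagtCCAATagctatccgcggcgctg
Mcm6, GRCm38.p6 chr1:128359706-128359955, minus strand: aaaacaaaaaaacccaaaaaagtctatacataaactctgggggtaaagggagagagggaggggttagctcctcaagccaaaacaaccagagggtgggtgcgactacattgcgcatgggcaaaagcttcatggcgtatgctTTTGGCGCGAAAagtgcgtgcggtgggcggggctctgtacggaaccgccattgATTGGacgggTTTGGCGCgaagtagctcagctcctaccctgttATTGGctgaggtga
Mki67, Top2a and Cdc20 each held CHR letters with CCAAT boxes and no E2F letters, whereas Mcm5 and Mcm6 held E2F letters and CCAAT boxes and no CHR letters. Not all MCM genes were of this kind, since Mcm2 and Mcm7 held CHR letters as well as a CCAAT box.

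RefSeq promoters were listed for 28 of the 37 genes. In windows of 300 bases, 250 before and 50 after the start, 13 of the 16 mitosis genes with a listed promoter held both CHR letters and a CCAAT box, which 7.7% of all 27025 listed promoters did. None of the 16 held E2F letters. These 16 leave out the mitotic cyclins and Cdk1, of which Ccnb2 and Cdk1 held CHR letters with CCAAT boxes, Ccnb1 held CCAAT boxes without CHR letters, and Cdk1 also held E2F letters. Of the 9 S phase genes 4 held E2F letters, all of them MCM genes, against 2.32% of all promoters, and 2 held CHR letters with a CCAAT box (22.2%). A CCAAT box was in 25 of the 28 promoters, against 37.9% of all. These are matches of letters, and binding was not measured.

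Each mouse gave 1 library of 20289487 to 54481934 counts. Notch3, the targeted gene, had a mean of 83.5 ± 11.7 CPM (SD, n = 8; CPM is the usual count scaled to library size, here with TMM factors) in Notch3+/+ mice and 16.3 ± 1.8 in Notch3-/- mice, and 73.0 ± 8.2 in WT and 181 ± 35.04 in TgNotch3R169C mice, so libraries followed their labels. Summed markers of smooth muscle were present in every library at 917 to 3666 CPM and those of endothelium at 1767 to 2955 CPM. The libraries also held RNA of other cells. Choroid plexus epithelium markers summed to between 223 and 25492 CPM, and neuron markers to between 124 and 941 CPM. Astrocyte markers were at 1949 to 3313 CPM, oligodendrocyte markers at 472 to 2162 CPM and pituitary markers at 1.51 to 8859 CPM, the highest in a Notch3+/+ library. In bulk tissue, fewer cells of a type and less RNA per cell cannot be told apart.

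The cell proliferation genes spanned a wide range of levels, compared between genes as CPM per kilobase of exon. Of the cyclins, Ccnd2, a D-type cyclin, had the highest median over the 32 mice with 12.2 CPM per kilobase, and the mitotic cyclin Ccnb1 the lowest with 0.0483, from 3 to 17 counts in a library. Ccnb1 did not pass the low count filter, so 36 genes were tested in each comparison. The mitotic kinase Cdk1 had a median of 0.248 CPM per kilobase, Mki67, which coats mitotic chromosomes, 0.640, and Top2a, which untangles the DNA copies, 0.467. The spindle checkpoint kinase Bub1 had 0.0999 CPM per kilobase, and its paralog Bub1b 0.934. The 9 highest medians were those of Ccnd2, the 6 MCM genes, the replication clamp Pcna (9.70) and Rrm1 (3.12), and the highest median of a mitosis gene was that of Cdc20, an activator of the anaphase-promoting complex, with 1.92.

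**Figure D1:**
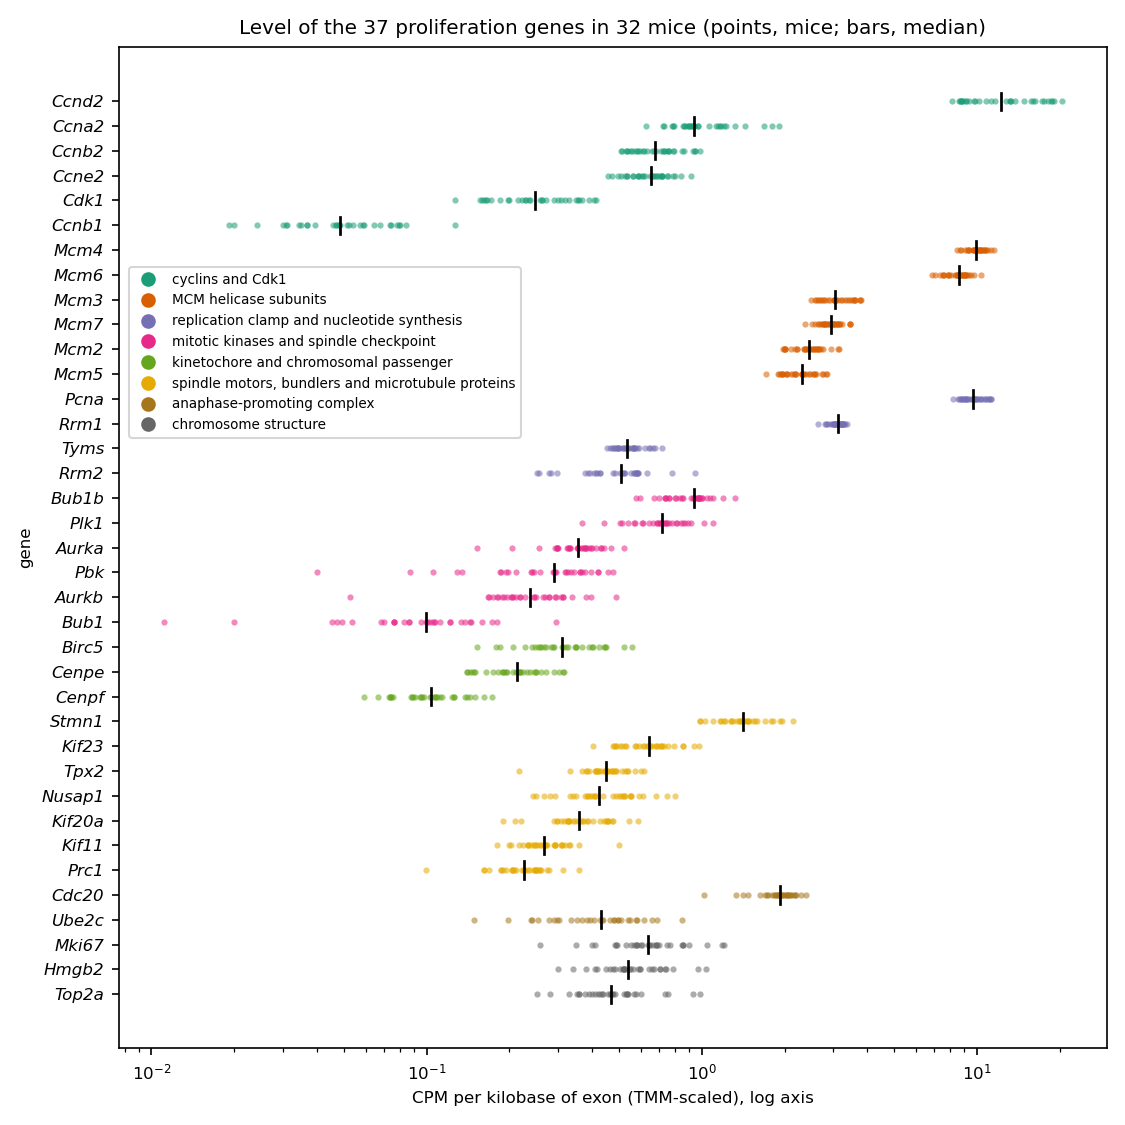
Level of each of the 37 genes in 32 mice as TMM-scaled CPM per kilobase of exon on a log axis, with a point per mouse, a black bar at the median and colors by role. Medians run from 0.0483 (Ccnb1) to 12.2 CPM per kilobase (Ccnd2), and the 6 MCM genes lie between 2.31 and 9.95.

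Subunits of the same complex were not at the same level. Mcm4 had a median of 9.95 and Mcm6 of 8.57 CPM per kilobase, whereas Mcm2, Mcm3, Mcm5 and Mcm7, the other subunits of the helicase ring, had 2.45, 3.04, 2.31 and 2.95. Mcm4 exceeded Mcm5 by a median ratio of 4.40 (range 3.44 to 5.67) and Mcm6 exceeded Mcm3 by 2.72 (2.26 to 3.25), and each of Mcm4 and Mcm6 was above each of the other 4 subunits in 32 of 32 mice. The same held for ribonucleotide reductase, which makes the building blocks of DNA. Its large subunit Rrm1 exceeded the S phase small subunit Rrm2 per kilobase by a median of 6.08 (range 3.15 to 12.0) in 32 of 32 mice. Rrm2b, the small subunit used outside S phase, which was chosen after these values were seen, had a median of 4.24 CPM per kilobase, against 0.509 for Rrm2. Of the mitotic cyclins, Ccnb2 exceeded Ccnb1 by a median ratio of 13.0 per kilobase. Ccnb1 had only 3 to 17 counts in a library, and its longest transcript shared 51.9% of its bases with other genes, against 0% for Ccnb2. Mcm7 shared 81.2% and Mcm2 3.1%, against 0% for Mcm3, Mcm4, Mcm5 and Mcm6. The part of shared sequence in these ratios was not tested. Exon lengths came from an annotation of another build (GENCODE vM21) and join the exons of all transcripts of a gene, so the size of each ratio depends on the exons it lists. They were 6956 bases for Mcm2, 11012 for Rrm1 and 4217 for Ccnb1, against 3494, 5475 and 2489 for the longest transcript. For Mcm4 and Ccnb2 the 2 lengths were the same, at 3589 and 1531 bases. Ratios by transcript length were not computed.

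In Notch3-/- mice, none of the 36 genes differed from Notch3+/+ mice at an adjusted p below 0.05 (edgeR quasi-likelihood test, Benjamini-Hochberg over 17714 genes), where 0.649% of all genes were called. None had an unadjusted p below 0.05 either, where 7.69% of all genes did. DESeq2 and limma voom called none, with 0 and 1 gene under an unadjusted p of 0.05. Mki67 was at 3.51, 5.68 and 12.1 CPM (lowest, median, highest) in Notch3+/+ mice and at 4.01, 6.46 and 10.5 CPM in Notch3-/- mice. Top2a was at 2.97, 4.31 and 8.87 CPM in Notch3+/+ and at 3.23, 4.69 and 8.36 CPM in Notch3-/- mice. The groups overlapped almost entirely for both, and the log2 fold changes were 0.09 ± 0.24 (SE) for Mki67 and 0.11 ± 0.23 for Top2a. The median over the 36 genes was 0.088, with 27 above and 9 below 0, against −0.001 over all genes tested. Cenpf, a kinetochore protein, had the lowest unadjusted p (log2 fold change 0.34 ± 0.17, SE; adjusted p = 0.69), followed by Ccnb2 (0.30 ± 0.16) and the cytokinesis motor Kif23 (0.23 ± 0.12). The 95% CI of 25 genes lay within a 1.5-fold change in either direction, and that of all 36 within 2-fold. In these mice 5 of 7 smooth muscle markers were lower, with sums of 1419 to 2175 CPM against 2073 to 3666 CPM in Notch3+/+ mice.

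In TgNotch3R169C mice, none of the 36 genes differed from WT mice aged 12 months, where 0.113% of 17731 genes were called (edgeR), and DESeq2 and limma voom again called none. By each of the 3 tools 0 had an unadjusted p below 0.05, by edgeR against 7.27% of all genes. Mki67 was at 4.10, 6.74 and 12.0 CPM in WT mice and at 2.60, 6.56 and 9.04 CPM in TgNotch3R169C mice (lowest, median, highest), with a log2 fold change of −0.22 ± 0.21 (SE). Top2a was at 2.27, 4.04 and 4.82 CPM in WT and at 2.52, 3.82 and 6.65 CPM in TgNotch3R169C mice, with 0.06 ± 0.19. The groups overlapped in both genes. The median over the 36 genes was −0.02, with 15 above and 21 below 0, against −0.007 over all genes. The largest change in size was that of the mitotic kinase Pbk, 0.45 ± 0.29 (SE; adjusted p = 0.75), a gene with 2 to 31 counts per library, and its 95% CI reached a 2.11-fold increase. The 95% CI of 30 genes lay within 1.5-fold and that of 35 within 2-fold.

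Rrm1 and Mcm4 had the narrowest intervals of the 36 genes in each comparison, and the other MCM genes were also measured closely. Mcm6 was at 34.2, 40.3 and 43.7 CPM in Notch3+/+, at 36.7, 41.3 and 48.2 CPM in Notch3-/-, at 31.99, 39.5 and 42.0 CPM in WT and at 32.9, 40.2 and 45.4 CPM in TgNotch3R169C mice (lowest, median, highest). All 4 groups overlapped. Its fold change had a 95% CI of 0.95 to 1.14 in Notch3-/- and of 0.93 to 1.14 in TgNotch3R169C mice. For Mcm4 the interval was 0.90 to 1.04 in Notch3-/- and 0.95 to 1.12 in TgNotch3R169C mice. 

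No difference between the 2 mutants' changes was called for any of the 36 genes in a test of the difference itself over all 4 groups. Of 18555 genes 0.35% were called there (0.264% higher and 0.0862% lower, edgeR), and DESeq2 and limma voom called 0 of the 36 too. Plk1, a kinase of mitotic entry, had an unadjusted p of 0.032 (difference, TgNotch3R169C change minus Notch3-/- change, −0.50 ± 0.22, SE, log2 scale; adjusted p = 0.53). It was the only gene of the 36 under 0.05, against 8.62% of all genes. Plk1 was at a mean of 1.39 ± 0.36 CPM (SD, n = 8) in Notch3+/+, 1.74 ± 0.43 in Notch3-/-, 1.68 ± 0.28 in WT and 1.47 ± 0.23 in TgNotch3R169C mice. The interval of the difference lay within 2-fold for 32 genes, against 36 and 35 for each mutant alone.

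**Figure D2:**
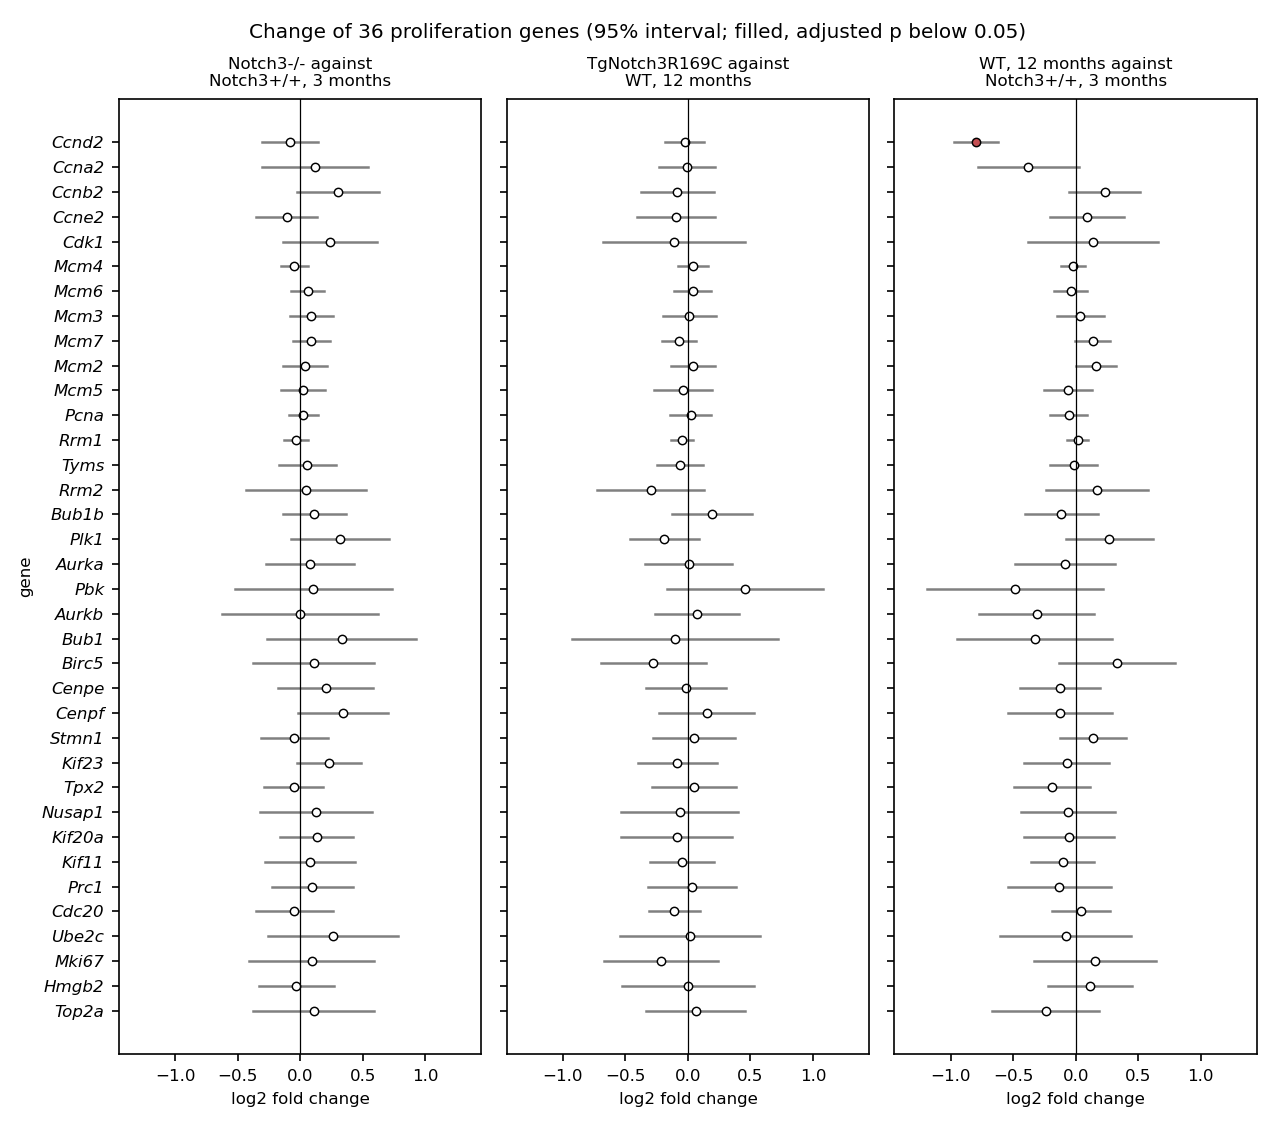
Log2 fold change (point) and 95% CI (bar) of 36 proliferation genes in 3 comparisons, ordered by role, with a filled point where the adjusted p was below 0.05. The only filled point is Ccnd2 at −0.80 in the comparison of the control groups, WT at 12 and Notch3+/+ at 3 months.

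Between the control groups, Ccnd2 was lower in the older mice and the other 35 genes were not called (edgeR, over 17643 genes), where 7.92% of all genes were called, 3.87% as higher and 4.05% as lower. Ccnd2 was at 126, 157 and 179 CPM (lowest, median, highest) in Notch3+/+ mice aged 3 months and at 80.9, 87.4 and 105 CPM in WT mice aged 12 months. The groups did not overlap. The same was so in the mutants, with 120, 145 and 192 CPM in Notch3-/- and 76.1, 85.7 and 110 CPM in TgNotch3R169C mice. The log2 fold change between the control groups was −0.80 ± 0.08 (SE; adjusted p = 0.000109, edgeR), or 0.51- to 0.65-fold by its 95% CI. By contrast, it was −0.08 ± 0.11 in Notch3-/- and −0.03 ± 0.07 in TgNotch3R169C mice against their own controls. In all 16 mice aged 12 months Ccnd2 was lower than in all 16 mice aged 3 months, a separation in either direction that 7 of 18555 genes showed (0.0377%); this count over both ages was made after the values were seen. Of 36 genes, 1 separated the control groups, against 1.29% of all.

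The other D-type cyclins were not called in this comparison. Ccnd1 had a mean of 80.3 ± 5.0 CPM (SD, n = 8) in Notch3+/+ and 80.8 ± 14.4 in WT mice, with a log2 fold change of 0.01 ± 0.09 (SE), and Ccnd3 had 176 ± 14.6 and 185 ± 13.6 CPM, with 0.07 ± 0.06. Markers of smooth muscle were lower in the same comparison in 7 of 7 genes (sums of 1141 to 1750 CPM in WT against 2073 to 3666 CPM in Notch3+/+ mice). With the mean log2 CPM of this list as a covariate, the fitted change of Ccnd2 was −0.95 (adjusted p = 0.14, edgeR). This covariate was added after the data were seen, and the fit called no gene at all. The list sums of the 2 groups did not overlap, so the covariate went largely with the group. Choroid plexus epithelium markers were higher in 4 of 6 genes, and with that list as a covariate the change of Ccnd2 was −0.88 (adjusted p = 0.0032, edgeR). The part of smooth muscle or choroid plexus RNA in the lower Ccnd2 level was not tested beyond these fits.

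**Figure D3:**
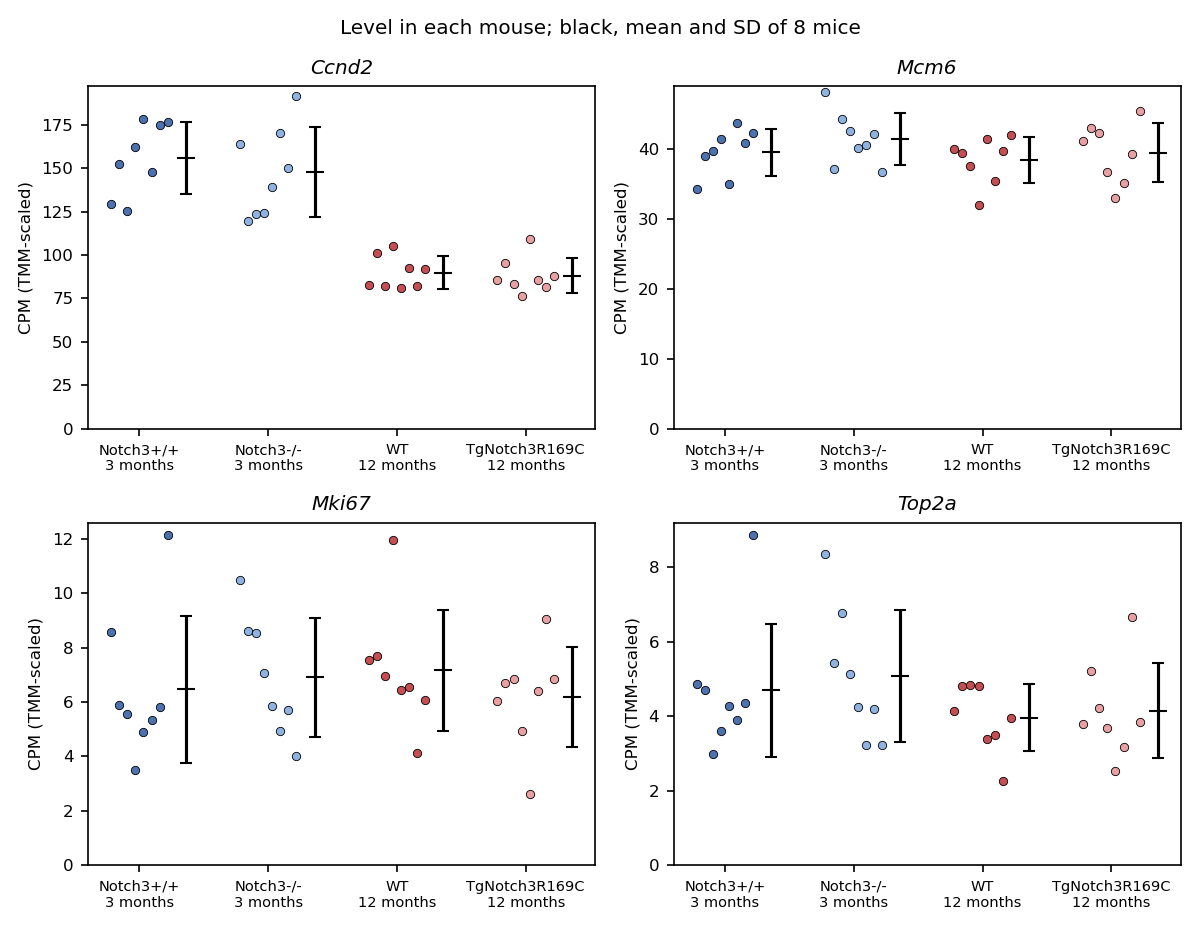
TMM-scaled CPM of Ccnd2, Mcm6, Mki67 and Top2a in each mouse of the 4 groups (points), with the mean and SD of 8 mice in black. Ccnd2 lies between 120 and 192 CPM in mice aged 3 months and between 76.1 and 110 CPM in mice aged 12 months, whereas the groups overlap in the other 3 genes.

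The rest of the genes gave no called difference between the control groups. Only 2 of the 36, Ccnd2 and Mcm2, had an unadjusted p below 0.05, against 24.2% of all genes. For Mcm2 the change was 0.16 ± 0.08 on the log2 scale (SE; adjusted p = 0.20, edgeR), and for Ccna2, the cyclin of S phase and G2, it was −0.38 ± 0.19 (adjusted p = 0.24). Mki67 was 0.15 ± 0.23 and Top2a −0.24 ± 0.20. The median over the 36 genes was −0.056, against 0.003 over all genes tested, and the 95% CI of 25 genes lay within 1.5-fold.

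Further cell cycle genes from a list were examined in the same fits. In Notch3-/- mice none of 37 other S phase genes, 55 other G2 and mitosis genes, 15 G1 regulators and 12 Cdk inhibitors and anti-proliferative genes was called, and in TgNotch3R169C mice none of 37, 53, 15 and 12. The lowest p values were those of Btg2, an anti-proliferative gene, in Notch3-/- (log2 fold change −0.26 ± 0.11, SE; adjusted p = 0.58) and of Ccnd3 in TgNotch3R169C mice (−0.14 ± 0.05, SE; adjusted p = 0.61). Sgo2a, which protects cohesin, had 0.38 ± 0.17 in Notch3-/- mice, and Cenpn, a centromere protein, 0.29 ± 0.10 in TgNotch3R169C mice, and neither was called. The test of the difference between the mutants' changes called none of these genes either.

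Between the control groups, 7 of these genes were lower and 1 higher in the older mice. In both directions together this was a share no larger than the 7.92% of all genes called. The 7 lower calls alone were a somewhat larger share than the 4.05% of all genes called lower, and 3.87% were called higher. By list they were 1 higher and 4 lower of 55 other G2 and mitosis genes, 1 lower of 15 G1 regulators and 2 lower of 12 Cdk inhibitors and anti-proliferative genes. Anln, a scaffold of the cytokinetic ring that is also a protein of myelin, rose by 0.75 ± 0.16 (SE, log2; adjusted p = 0.011). It went from 4.85, 7.67 and 11.0 CPM (lowest, median, highest) to 10.1, 12.5 and 16.4 CPM, and the groups overlapped slightly. Oligodendrocyte markers were higher in the same comparison in 3 of 6 genes, and their part in the Anln result was not tested. Smc4, of the condensin complex that compacts chromosomes, fell by 0.25 ± 0.06 (adjusted p = 0.012), from 40.2, 44.7 and 51.5 CPM to 35.6, 37.6 and 40.1 CPM, and its groups did not overlap. Ttk, the spindle checkpoint kinase, fell by 0.79 ± 0.21, the motor Kif20b fell by 0.48 ± 0.14, and Foxm1, a transcription factor of mitosis genes, fell by 0.56 ± 0.17 (adjusted p = 0.028, 0.044 and 0.046). E2f3, a transcription factor of S phase entry, fell by 0.28 ± 0.07, Btg2 fell by 0.41 ± 0.12, and Ccng2, a cyclin that slows the cycle, fell by 0.17 ± 0.05 (adjusted p = 0.030, 0.040 and 0.028). Leaving out any 1 mouse ended no call of Anln or Smc4, while 3 of 13 other settings ended each call, among them the smooth muscle and choroid plexus lists as covariates (adjusted p up to 0.53 and 0.52, edgeR). Ccng2 lost its call without Notch3+/+ replicates 2 and 7 (adjusted p = 0.068 and 0.051), and Ttk without Notch3+/+ replicate 2 or WT replicates 4, 5 or 6 (adjusted p up to 0.063). E2f3 lost it without Notch3+/+ replicates 2 and 6 or WT replicates 2, 5 and 6, each alone (up to 0.068). Btg2, Kif20b and Foxm1 lost it in 10, 10 and 13 of the 16 fits without 1 mouse (up to 0.072, 0.092 and 0.086). Their adjusted p with all mice was already near the threshold. In these fits their log2 fold changes stayed negative, at −0.46 to −0.30, −0.55 to −0.42 and −0.64 to −0.44. Other settings also ended calls, in 7 of 13 for Foxm1 and Kif20b, 6 of 13 for E2f3, Btg2 and Ccng2, and 5 of 12 for Ttk, with adjusted p up to 0.86 and a log2 fold change as small as −0.14 for Kif20b. Of 37 other S phase genes none was called, and the lowest p was that of the polymerase subunit Pold1 (0.17 ± 0.06; adjusted p = 0.11).

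Some of the mitosis genes varied with Mki67 among mice of the same group. This was examined after the data were seen, with a slope on log2 CPM of Mki67 fitted for each gene over all 32 mice after group means were taken out (edgeR quasi-likelihood test, 18554 genes). A slope of 1 means that a gene doubles when Mki67 doubles. Of 35 genes tested, 8 had a positive slope at an adjusted p below 0.05, against 0.426% of all genes, and 17 at an unadjusted p below 0.05, against 5.24%. The 8 were Top2a (0.76 ± 0.09, SE), Birc5 of the chromosomal passenger complex (0.69 ± 0.12), Cenpf (0.53 ± 0.10), Ube2c, the ubiquitin enzyme of the anaphase-promoting complex (0.80 ± 0.15), Bub1 (1.003 ± 0.22), the spindle motor Kif11 (0.41 ± 0.09), Rrm2 (0.58 ± 0.13) and Aurkb (0.64 ± 0.15). Top2a had a Pearson r of 0.85 with Mki67. Not all mitosis genes followed it over the 32 mice, with r = 0.20 for Bub1b and 0.38 for Cdc20, neither of which was called. Within groups Bub1b had r = −0.10 in Notch3+/+, 0.70 in Notch3-/-, −0.55 in WT and 0.78 in TgNotch3R169C mice. Cdc20 had 0.27, 0.50, −0.05 and 0.67 in the same order.

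The genes of DNA replication split in this respect. None of the 6 MCM genes was called, with slopes between −0.02 and 0.08, and Pcna had 0.05 ± 0.05 (SE), Rrm1 0.00065 ± 0.034 and Tyms, which makes thymidylate, −0.01 ± 0.07. Rrm2, by contrast, followed Mki67. Ccnd2 had a slope of −0.09 ± 0.07. Thus the 9 genes with the highest medians per kilobase, Ccnd2, the MCM genes, Rrm1 and Pcna, had slopes between −0.09 and 0.08. The MCM genes varied with each other, with a median Spearman rho of 0.53 over 15 pairs (range −0.04 to 0.81). For mitotic kinases and checkpoint genes it was 0.26 over 15 pairs, and for spindle motors, bundlers and microtubule proteins 0.27 over 21 pairs. Kinetochore and passenger genes had 0.50 over 3 pairs, chromosome structure genes 0.51 over 3, and Cdc20 with Ube2c −0.01. Over all 630 pairs of 36 genes the median was 0.20. These values describe 32 mice that share libraries and normalization. Stmn1, a microtubule protein that neurons also express, had −0.08 ± 0.11.

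**Figure D4:**
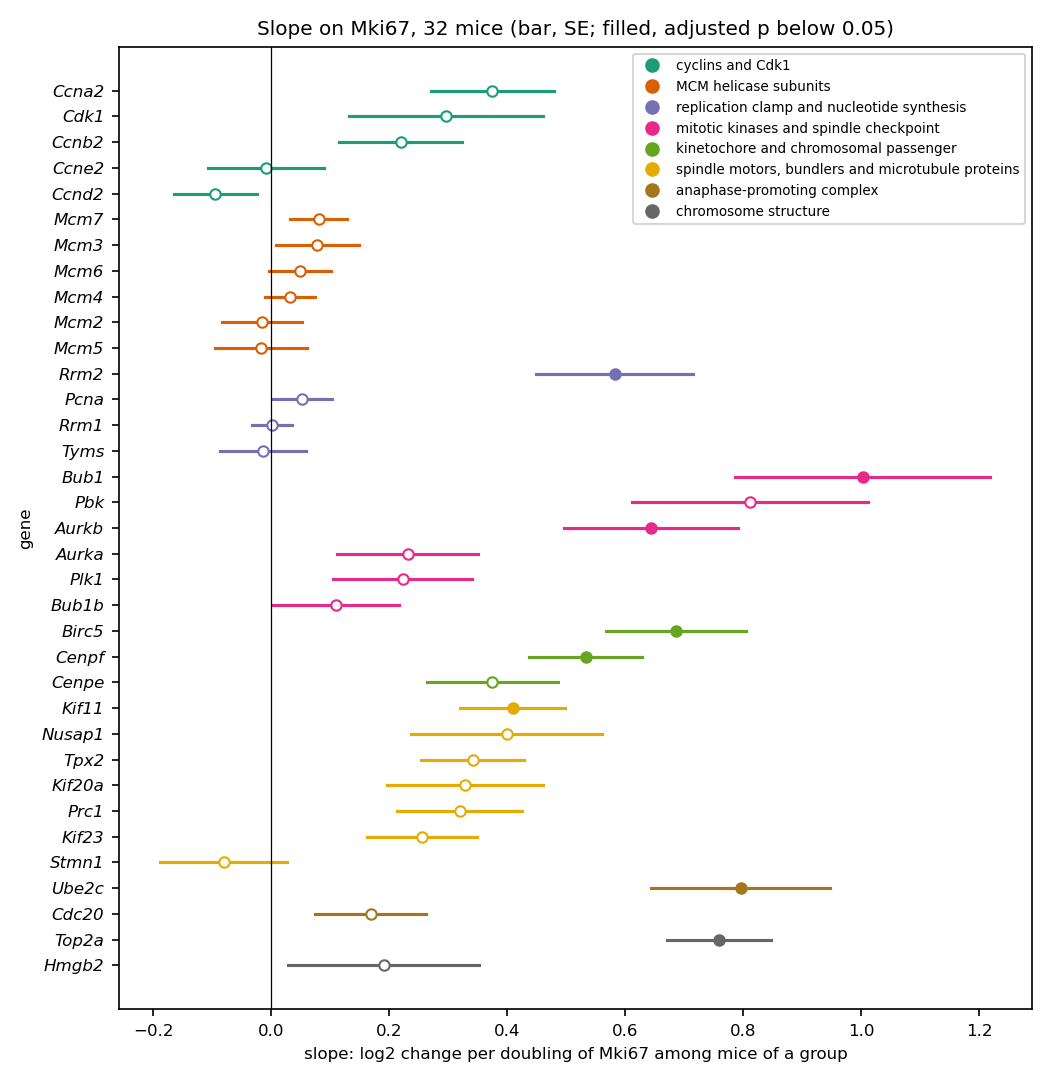
Slope of 35 genes on Mki67 across 32 mice with group means taken out (point) and its SE (bar), colored by role, filled where the adjusted p was below 0.05. Slopes of the MCM genes lie between −0.02 and 0.08, whereas that of Top2a is 0.76 and that of Bub1 is 1.003.

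The number of called slopes depended on 2 mice, although the slopes themselves were not smaller without them in most genes. Without TgNotch3R169C replicate 5, with the lowest Mki67 level (2.60 CPM), and Notch3+/+ replicate 8, with the highest (12.1 CPM), 2 of 35 genes were called (Top2a, 0.78, adjusted p = 0.0061, and Rrm2, 0.88, adjusted p = 0.025, edgeR), against 0.0267% of all genes. The other 6 had slopes from 0.50 (Cenpf) to 1.298 (Bub1) there, with adjusted p from 0.065 to 0.22, and the median over the 35 genes was 0.29, against 0.23 in all 32 mice. In the same 30 mice 17 of 35 had a positive slope at an unadjusted p below 0.05, against 3.8% of all. Within the mice aged 3 months 1 gene was called, against 0.13% of all genes, and within those aged 12 months none, as for all genes (edgeR). At an unadjusted p below 0.05 there were 16, against 3.71% of all, and 11, against 5.03%. Of the other cell cycle genes, E2f2 (0.52 ± 0.10, SE), E2f8 (0.63 ± 0.14) and Cdca5, which stabilizes cohesin (1.07 ± 0.21), were called over the 32 mice, as 2 of 37 other S phase genes and 1 of 56 other G2 and mitosis genes, against 0.426% of all genes.

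Among 17 lists of cell type markers, Mki67 and Top2a varied with those of blood and bone marrow cells. For each list the mean log2 CPM of its genes was compared with Mki67 and with Top2a over the 32 mice, after group means were taken out, with 100000 permutations of mice within groups (two-sided), and 34 relations in all. Mki67 had a Pearson r of 0.75 and a Spearman rho of 0.80 with the T cell list (p = 1e-05 for both, the smallest the permutations can give; adjusted p = 8.5e-05 and 0.000113), and Top2a had 0.77 and 0.78. With the erythroid list Mki67 had r = 0.74 and rho = 0.72 (p = 1e-05 for both), and with the immature myeloid cell list, of genes such as Elane and Mpo, r = 0.70 and rho = 0.71 (p = 3e-05 for both). With the B cell list r was 0.50 and rho 0.51 (permutation p = 0.00468 and 0.00399; adjusted p = 0.023 and 0.017). These are relations of list means, and single genes of a list differed in their slope on Mki67 (edgeR). In the T cell, erythroid and immature myeloid lists 3 of 6 genes tested were called each. All slopes in these lists were positive, the lowest being 0.42, 0.57 and 0.53. Of 6 B cell genes 0 were called, and their slopes ran from −0.64 to 0.66 with a median of 0.55. The 4 lists gave 8 relations past an adjusted p of 0.05 for both genes, and no relation with the other 13 lists passed it.

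Each of these relations kept its sign when the 2 mice farthest from the median of the list were left out, with r = 0.80 for Mki67 and T cells, 0.66 for erythroid, 0.70 for immature myeloid and 0.44 for B cells. Within the 4 groups r was between 0.47 and 0.95 for Mki67 and T cells and between 0.61 and 0.87 for Mki67 and erythroid cells. It was between 0.52 and 0.81 for immature myeloid cells and between 0.18 and 0.79 for B cells. The B cell relation was weakest in TgNotch3R169C (0.18) and Notch3-/- mice (0.37). The lists also varied with each other, for example with r = 0.86 between erythroid and immature myeloid cells. With the log2 total count of the library Mki67 had r = 0.35 and the T cell list 0.41.

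No relation of Mki67 with a list of cells of the artery wall passed the threshold over all 32 mice. For smooth muscle r was −0.07 and rho −0.07, for endothelium −0.03 and −0.06, and for pericytes 0.15 and 0.10 (adjusted p of rho = 0.80 each). Fibroblasts had r = 0.41 and rho = 0.33 (adjusted p = 0.12 and 0.25), and r = 0.22 without 2 mice, and with Top2a r = 0.44 and rho = 0.44 (adjusted p = 0.067 and 0.078). Within groups these relations had opposite signs. For Mki67 and smooth muscle r was −0.71 in Notch3+/+, 0.44 in Notch3-/-, −0.57 in WT and 0.69 in TgNotch3R169C mice. For endothelium it was between −0.81 and 0.75, and for fibroblasts between −0.46 and 0.95, each from 8 mice and given without a test. TgNotch3R169C replicate 5 was lowest of its group in Mki67 (−1.17 from the group mean, log2). It was also lowest in the smooth muscle (−0.42), endothelium (−0.30) and fibroblast (−0.34) lists. The r values of that group may depend on this mouse and were not computed without it. The blood cell lists were at low levels: summed CPM was 4.32 to 26.5 for the 6 T cell genes and 4.73 to 120 for the 7 immature myeloid genes, whereas the erythroid list, which includes hemoglobin, summed to 465 to 2645. The arteries were dissected from brains taken after decapitation, and no perfusion is described for them. Whether Mki67 and Top2a came from these cells was not tested.

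**Figure D5:**
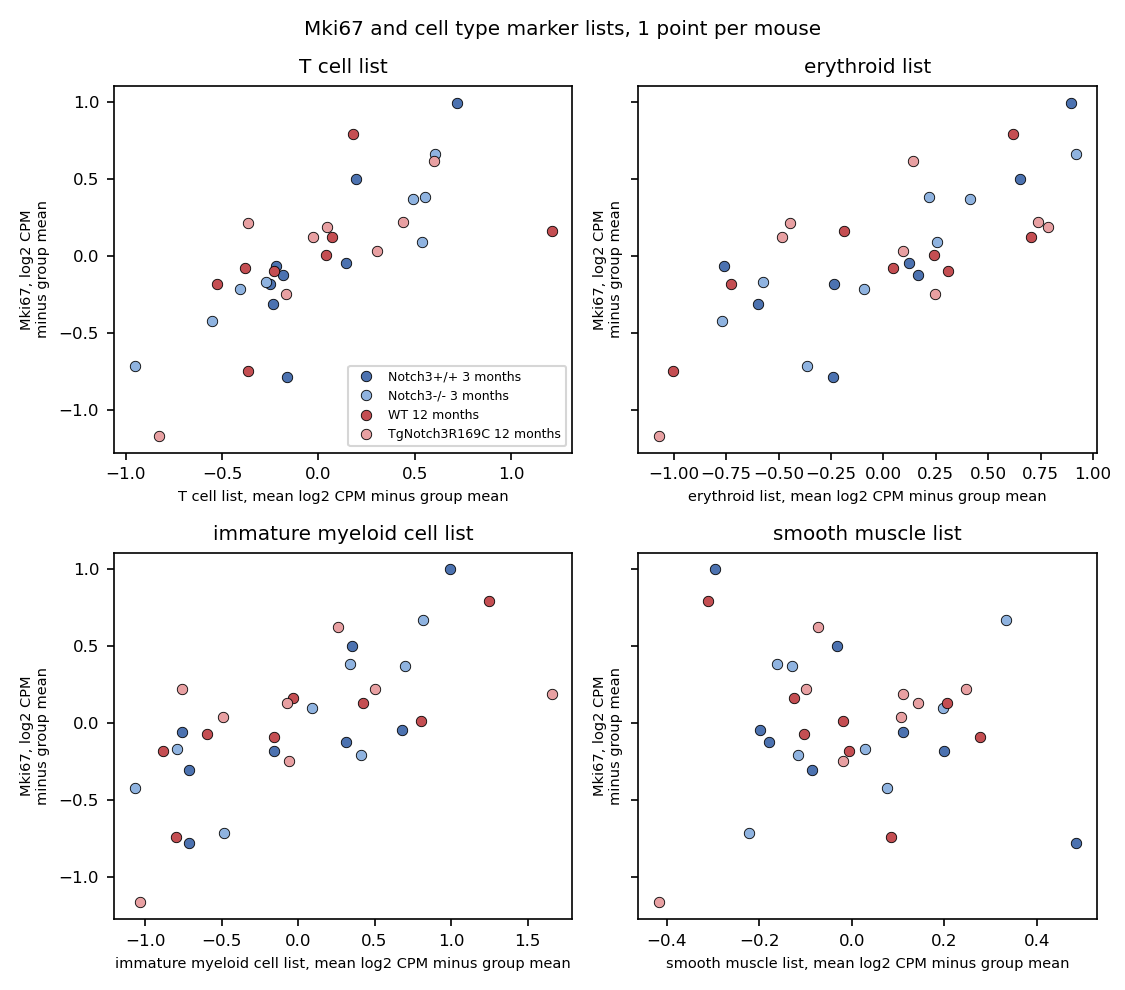
Log2 CPM of Mki67 (y axis) against the mean log2 CPM of the T cell, erythroid, immature myeloid cell and smooth muscle lists (x axes), each minus its group mean, with a point per mouse colored by group. Mki67 is higher in mice with more T cell (r = 0.75), erythroid (0.74) and immature myeloid (0.70) RNA, and has r = −0.07 with smooth muscle RNA, where the groups differ in sign.

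Some of the genes share sequence with others, so that their counts are uncertain. At 97% identity or more over 100 bases or more, the longest transcript of Mcm7 shared 81.2% of its bases with Gm5487 and Ap4m1, that of Ccnb1 51.9% with Gm12856, Gm8416 and Ccnb1-ps, that of Pcna 51.4% with Pcna-ps2, and that of Stmn1 42.5% with Gm11223. Kif20a (34.7%, Cdc23), Ube2c (25.3%, Tnnc2), Ccne2 (20.4%, Ints8) and Ccna2 (17.3%, Exosc9) shared bases with the gene named beside each, and Hmgb2 (24.1%) with Gm13232 and others. Whether the counting used the strand is not given in the sources used here.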

How the data were processed

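Brain arteries of 32 mice were profiled by stranded, poly(A)-selected RNA sequencing, with 1 library per mouse. The deposited values are whole-number read counts for each Ensembl gene, which the authors did not normalize. The submitters' processing notes name bcl2fastq 2.20.0.422, cutadapt 1.10, Bowtie2 2.2.8, STAR 2.5.3a, HTSeq 0.6.1p1 and the build mm39, with no role. Of 55357 genes, 52081 matched a symbol. Groups came from the labels.

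The counts entered edgeR 4.0.16 under R 4.3.3: filterByExpr, TMM and the quasi-likelihood test in fits of the 2 groups compared (all 4 for the difference of changes), with Benjamini-Hochberg adjustment over all genes tested. The values in log2 CPM used a prior count of 1. DESeq2 1.42.0, limma 3.58.1, other filters, normalization, covariates, a replicate block and leaving out each mouse were alternatives. Shared sequence was found with blastn 2.17.0. The scripts were tested on simulated data. The members and gene lists were chosen with earlier results of these data known. Named are all 37 genes, and of other cell cycle lists the called genes or the gene of lowest p in a comparison, some of which are given by count only. The p values measure the spread between mice.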

Additional observations from a re-analysis of the deposited data

Results flagged for a closer look

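Within groups of 8 mice, 1 mouse stood apart from the other 7 in 11 of 148 combinations of gene and group (7.43%) by Dixon's test on CPM at the 95% level. Chance alone gives about 1 in 20. Of the 11, 3 were in Notch3+/+ replicate 8, in which Top2a was highest at 8.87 CPM (other mice 2.97 to 4.86), Prc1, a spindle bundler, highest at 2.94 CPM (1.33 to 2.03), and Pcna lowest at 21.2 CPM (23.2 to 25.0). Mki67 was highest in WT replicate 4 at 12.0 CPM (4.10 to 7.71), and Rrm2 in Notch3-/- replicate 1 at 2.61 CPM (0.825 to 1.61). Hmgb2, a chromatin protein, was highest in Notch3+/+ replicate 4 at 2.22 CPM (1.43 to 1.79) and in WT replicate 1 at 2.91 CPM (1.23 to 1.98). Ccna2 was lowest in TgNotch3R169C replicate 4 at 2.95 CPM (3.51 to 3.97), Ccnb2 in WT replicate 6 at 0.809 CPM (1.09 to 1.21), Tpx2, a spindle assembly factor, in WT replicate 7 at 1.01 CPM (1.82 to 2.51), and Cdc20 in Notch3-/- replicate 8 at 1.91 CPM (3.16 to 4.09).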

How the results depend on the processing

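In Notch3-/- mice, in TgNotch3R169C mice and for the difference of their changes, 0 of the genes were called in every one of 29, 29 and 44 alternatives. Some passed an unadjusted p of 0.05 in part of them. In Notch3-/- mice these were most often Ccnb2 (7 of 29), Cenpf (6), Kif23 (4) and Plk1 (2), and in TgNotch3R169C mice no gene passed in more than 1. For the difference Plk1 passed in 36 of 44 and Ccnb2 in 7. Between the control groups Ccnd2 was called in 28 of 29 alternatives, with log2 fold changes of −0.95 to −0.76, and the exception was the smooth muscle list as a covariate (0 genes called, Ccnd2 −0.95, adjusted p = 0.14), chosen after the data were seen, under which no gene of the table was called. Without each mouse in turn the count was 0 to 0 in both mutants and their difference and 1 to 1 between the control groups, and the median log2 fold change was 0.029 to 0.13 in Notch3-/- mice, −0.050 to 0.0082 in TgNotch3R169C mice, −0.079 to −0.0095 between the control groups and −0.14 to −0.049 for the difference. The number of genes with a slope on Mki67, 8, became 2 without the 2 mice farthest in Mki67, 5 with no filter, 1 in the mice aged 3 months and 0 in those aged 12 months, with fewer mice in 3 of these fits, and was 11 with Top2a as regressor; all were chosen after the data were seen. The correlations with marker lists gave 8 relations past the threshold with a prior count of 0.25 too.

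Replicate numbers were not taken to pair the mice. Deviations from group means of mice with the same number correlated at −0.13 to 0.33 in Notch3-/- and Notch3+/+, −0.23 to 0.42 in TgNotch3R169C and WT, and −0.19 to 0.23 in the control groups. Of 8 pairs in each, 4, 4 and 3 were above 0.1. Mice with different numbers were not compared in this way, so these values do not settle whether the numbers pair mice. With the replicate block 0, 0, 1 and 0 genes were called in the 4 comparisons. Depth kept Ccnb1, with 3 to 17 counts in a library, out of the tests.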
